A study of Mus musculus with 2 samples.

Results

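Solute carriers are the membrane proteins that move nutrients, ions, neurotransmitters, vitamins and metals in and out of cells and organelles, and their mouse genes have symbols that begin with Slc. The genes described here are those with a symbol of Slc followed by a digit that were listed for both libraries, apart from Slc1a2, Slc1a3, Slc6a11, Slc38a2 and Slc40a1. They numbered 216 of the 12744 genes listed for both libraries. The rule works on symbols alone, so it also took in Slc4a1ap, Slc7a6os, Slc9a3r1 and Slc9a3r2, which are named after a neighbouring or partner carrier and are not carriers themselves. The questions were which cell class of the hippocampus held each gene and how its level in that class compared between the genotypes.

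Cells came from the hippocampi of 57-week-old GlaKO mice and their wt littermates, with 1 single-cell RNA library for each genotype. GlaKO mice lack a working Gla, the gene of the lysosomal enzyme alpha-galactosidase A, and serve as a model of Fabry disease, in which glycosphingolipids build up in lysosomes. How many animals went into a library, and their sex, are not given in the labels. The tissue of both genotypes was perfused, digested with enzymes, cleared of debris and sorted on a viability dye, so the libraries hold the cells that survived these steps.

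Each solute carrier family is built around a kind of cargo, and a cell's set of carriers follows its work. Astrocytes clear transmitters and buffer bicarbonate, neurons load glutamate and zinc into synaptic vesicles and export chloride, and endothelial cells of the blood-brain barrier import glucose and amino acids. The epithelium of the choroid plexus, which lies in the ventricle beside the hippocampus, secretes cerebrospinal fluid by moving ions, metals, vitamins and organic acids between blood and fluid.

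The GlaKO library held 29914106 unique molecular identifiers (UMIs, each standing for 1 captured RNA molecule) over 4572 cell barcodes, and the wt library held 31929688 over 5443. Both libraries shared 6 barcode sequences. Gla had 222 UMIs in the GlaKO library, or 7.43 CPM (the count per 1000000 UMIs; 95% Poisson interval 6.49 to 8.48), and 397 in the wt library, or 12.4 CPM (11.2 to 13.7); the labels do not say which part of Gla is deleted, so transcripts read from the 3′ end are only a partial check of the genotype. Choroid plexus epithelium made up 17.8% of the GlaKO cells and 47.8% of the wt cells. Its cells held a median of 8611 UMIs in GlaKO and 5890 in wt, and a median mitochondrial share of 1.20% in GlaKO and 2.48% in wt. Markers of other cell types also differed between the libraries within a class: the summed oligodendrocyte markers were higher in GlaKO in all 6 other compared classes, by 0.90 to 1.35 on the log2 scale. Because each genotype was 1 library, nothing could be tested: the ratios below compare 2 libraries, and each 95% interval covers counting error only.

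A home class could be named for 94.9% of the solute carriers and for 96.7% of all genes. A class was said to hold a gene if its CPM over both libraries was the highest and rested on at least 20 UMIs, and 205 of the 216 genes were placed in this way. Astrocytes held 48, neurons 42, oligodendrocyte precursors 33, microglia 23, choroid plexus epithelium 22, endothelial cells 13, oligodendrocytes 12, T cells 8 and border macrophages 4. Astrocytes held 22.2% of the solute carriers, against 12.2% of all genes, while neurons held 19.4% of the solute carriers, against 23.5% of all genes. The class with the highest level rested on fewer than 20 UMIs for the remaining 11, namely Slc10a7, Slc16a10, Slc22a5, Slc25a26, Slc25a30, Slc25a32, Slc2a6, Slc35a3, Slc38a6, Slc39a11 and Slc52a2. The holding class was the same in GlaKO alone and in wt alone for 153 of the 205 genes, and for 178 when it was chosen among the 7 classes large enough to compare.

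How sharply a gene was confined to its class varied widely. In 54 genes the holding class was at least 3 times above the next class, and 13 of these were at least 10 times above it. In 34 others the margin was under 1.1 times, so their home class is a narrow call. The fructose transporter gene Slc2a5 had the widest margin, at 63.9 times in microglia, followed by 5 genes of neurons: the vesicular glutamate transporters Slc17a6 at 45.7 times and Slc17a7 at 40.3 times, the vesicular zinc transporter Slc30a3 at 38.3 times, Slc7a14 at 36.7 times and the chloride exporter Slc12a5 at 35.6 times. The mitochondrial glutamate carrier Slc25a18 reached 29.1 times in astrocytes. Astrocytes accounted for 16 of the 54 genes, neurons for 15, endothelial cells for 9, choroid plexus epithelium and microglia for 4 each, oligodendrocyte precursors for 3, oligodendrocytes for 2 and T cells for 1.

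**Figure D1:**
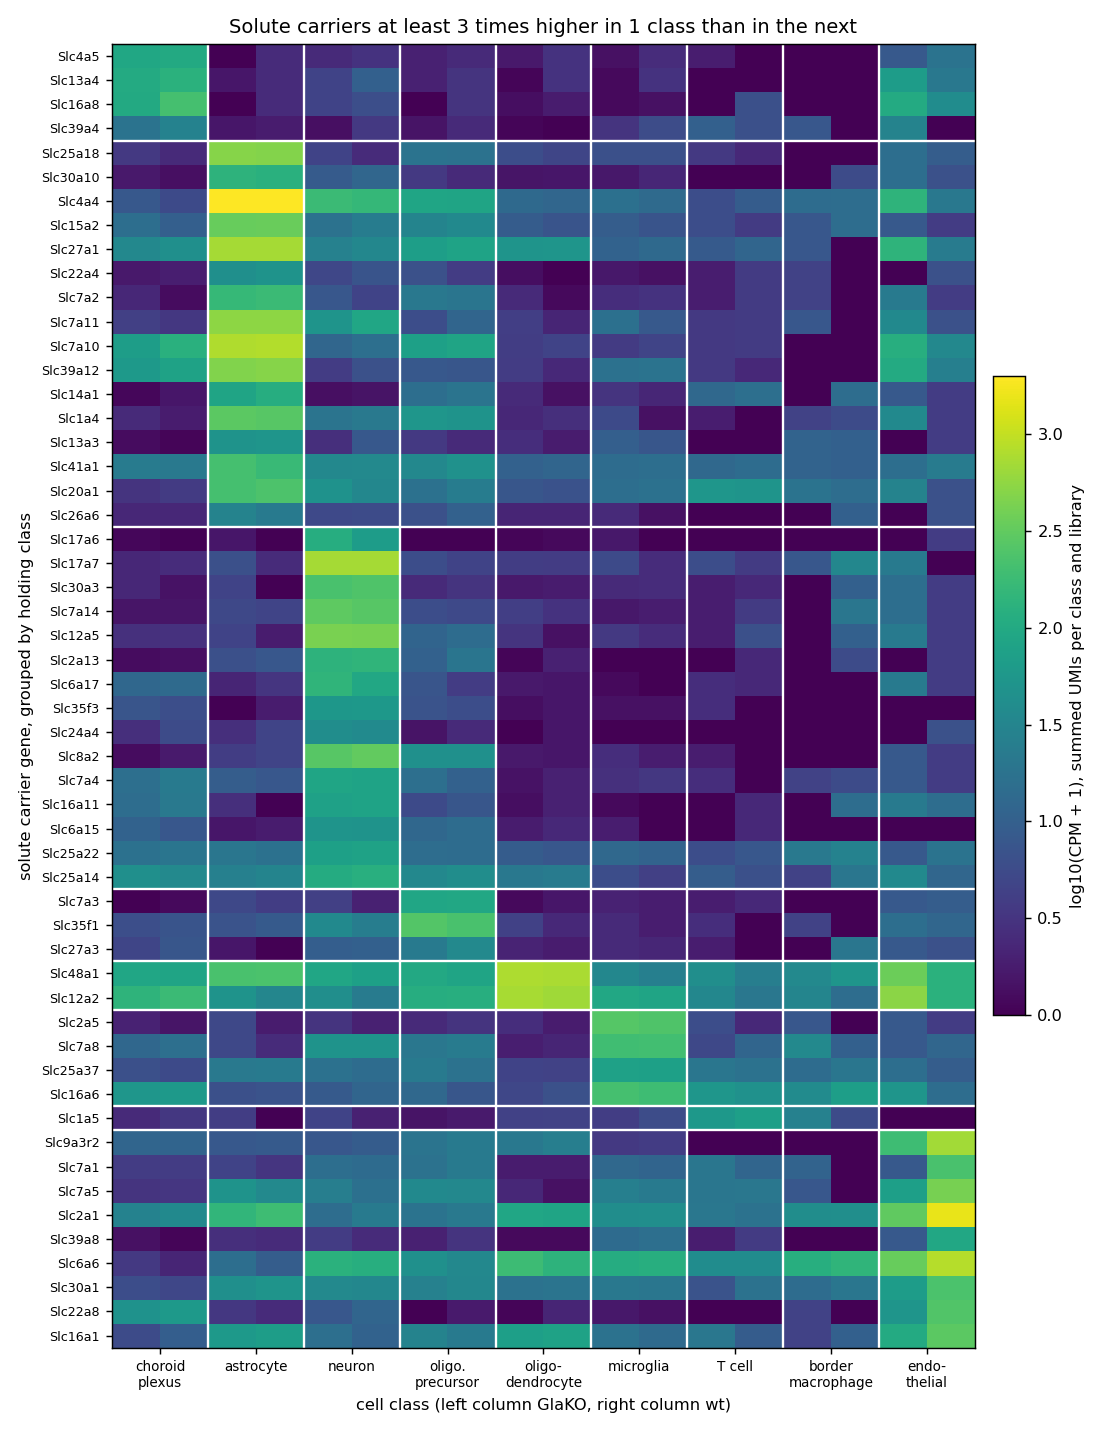
Levels of the 54 solute carriers whose holding class was at least 3 times above the next class, as log10(CPM + 1) of summed UMIs; in each class the left column is GlaKO and the right column is wt. The genes form blocks along the classes that hold them, and in the endothelial block the GlaKO column, from 33 cells, is darker than the wt column, from 99 cells.

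Within the class that holds them, solute carriers had nearly the same level in both libraries. Of the 205 genes, 163 could be compared, having at least 100 summed UMIs in a class with at least 100 cells in each library. A further 17 were held by endothelial cells or border macrophages, which were too few, and 25 had under 100 UMIs. The median log2 ratio of GlaKO over wt was -0.02, with 72 genes higher and 91 lower in GlaKO, beside a median of 0.01 over the 9949 genes compared in their holding class. The ratio lay within 0.2 of 0 for 117 of the 163 (71.8%), beside 68.0% of all genes. Only 3 were at least 1.5-fold higher in GlaKO, which is 1.84% beside 1.82% of all genes, and 5 were at least 1.5-fold lower, which is 3.07% beside 1.35% of all genes. Of the lower ones, Slc16a8, Slc6a20a, Slc39a4 and Slc8a1 had the same holding class in wt alone but another class in GlaKO alone. Those higher had the same holding class in each library.

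**Figure D2:**
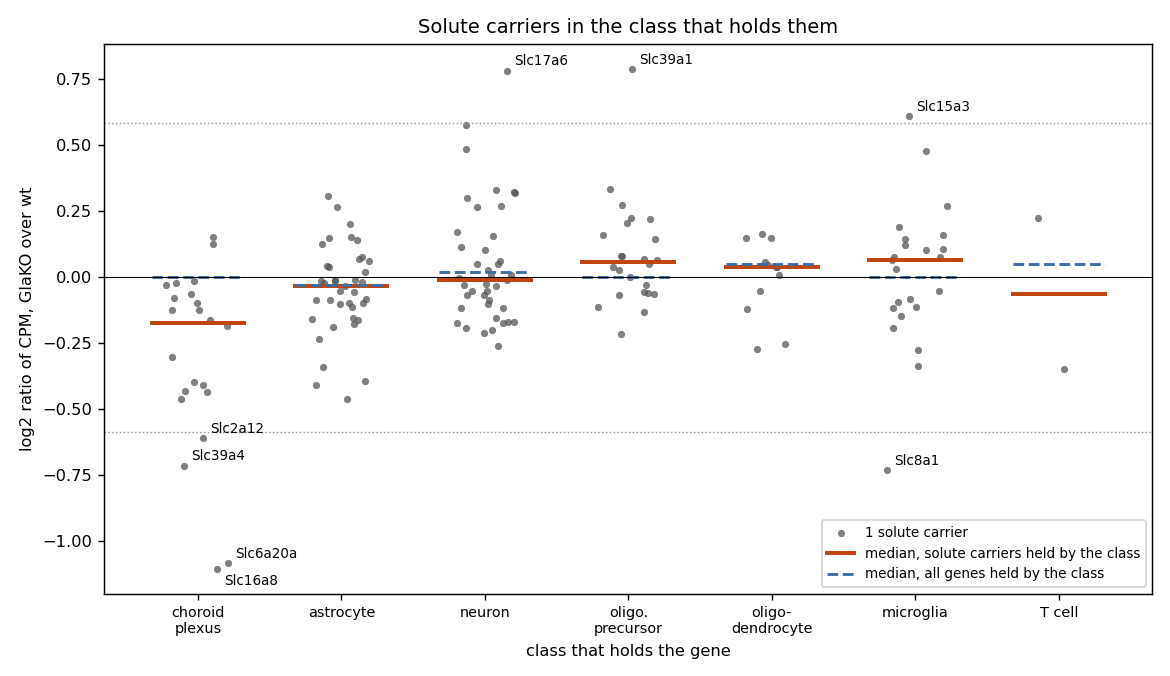
Log2 ratio of CPM, GlaKO over wt, for the 163 solute carriers compared in their holding class; each point is 1 gene, the solid bar is the median of the solute carriers, the dashed bar the median of all genes held by the class, and the dotted lines mark 1.5-fold. Points gather around 0 except in choroid plexus epithelium, where 20 of 22 lie below 0 and 4 lie past 1.5-fold.

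Choroid plexus epithelium was the class whose carriers stood lower in GlaKO. Of its 22 solute carriers 20 were lower and 2 higher, with a median log2 ratio of -0.17. The class was assigned on the UMIs of both libraries together, 7401769 from GlaKO and 18173701 from wt in this epithelium. A gene could thus enter the 22 through its wt level. Of the 22, 15 had the same holding class in GlaKO alone and in wt alone, and 21 did among the classes large enough to compare. All 1724 genes held by this class had a median of 0.00, with 869 higher and 855 lower. At least 1.5-fold lower were 4 of the 22, beside 2.78% of all genes held by the class, and none was 1.5-fold higher, beside 2.03%. Across all 136 solute carriers that could be measured in this epithelium, whether held by it or not, the median was -0.12, beside 0.06 over all 9422 genes measured there. Of the 136, 15 were at least 1.5-fold lower and 6 at least 1.5-fold higher, beside 2.61% and 5.16% of all genes measured there.

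Marker lists also differed within the class. The 9 choroid plexus markers measured summed to 14090 CPM in GlaKO and 16040 CPM in wt, a log2 ratio of -0.19, with 2 of the 9 higher in GlaKO and none at 0. The 2 erythroid markers measured summed to 73.2 CPM in GlaKO and 21.8 CPM in wt, a ratio of 1.75, and both were higher in GlaKO. Their part in the carriers' ratios was not tested. By cluster of the class, 17, 13, 18 and 16 of the carriers with 20 UMIs were lower in clusters 3, 4, 7 and 8, out of 22, 20, 22 and 22. Counts over all genes are not given by cluster, so these numbers do not set carriers apart from other genes.

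The carriers furthest below were Slc16a8, Slc6a20a, Slc39a4 and Slc2a12. In GlaKO alone Slc16a8, Slc6a20a and Slc39a4 were highest in endothelial cells, of which GlaKO had 33. Among the classes large enough to compare, each of the carriers furthest below was highest in choroid plexus epithelium in both libraries. Slc16a8, which encodes the lactate carrier MCT3, had 729 UMIs (98.5 CPM) in GlaKO and 3845 UMIs (212 CPM) in wt, a log2 ratio of -1.10 (95% interval -1.22 to -0.99). Slc6a20a, which encodes the proline transporter SIT1, had 160 UMIs (21.6 CPM) in GlaKO and 832 UMIs (45.8 CPM) in wt, a ratio of -1.08 (-1.34 to -0.84). No other compared solute carrier stood as far from 0 in its holding class. The zinc importer gene Slc39a4 had 127 UMIs (17.2 CPM) in GlaKO and 511 UMIs (28.1 CPM) in wt, a ratio of -0.71 (-1.0 to -0.43). The sugar transporter gene Slc2a12, which encodes GLUT12, had 578 UMIs (78.1 CPM) in GlaKO and 2166 UMIs (119 CPM) in wt, a ratio of -0.61 (-0.74 to -0.48), just past 1.5-fold.

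The stretches just before the starts of these genes are shown because the UMIs of both libraries together placed the genes in the same class. In GlaKO alone Slc16a8, Slc6a20a and Slc39a4 were highest in another class. A shared control of these genes was not tested. They are the RefSeq promoter sequences (GRCm38.p6, read 5′ to 3′ along each gene's strand), ending where the annotated gene begins; Slc39a4 had no entry. Capitals mark a GC box (GGGCGG or its complement).
Slc16a8, chr15:79254762-79254998, minus strand: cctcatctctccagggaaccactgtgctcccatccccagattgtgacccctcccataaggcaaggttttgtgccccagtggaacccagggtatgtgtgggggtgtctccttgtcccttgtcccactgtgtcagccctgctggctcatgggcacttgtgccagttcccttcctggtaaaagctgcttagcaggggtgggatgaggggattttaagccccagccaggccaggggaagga
Slc2a12, chr10:22644761-22645010, plus strand: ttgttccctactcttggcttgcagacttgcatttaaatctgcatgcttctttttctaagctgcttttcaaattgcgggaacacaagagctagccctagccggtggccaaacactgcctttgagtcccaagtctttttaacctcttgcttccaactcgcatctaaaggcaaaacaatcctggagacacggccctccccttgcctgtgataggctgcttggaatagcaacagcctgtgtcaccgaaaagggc
Slc6a20a, chr9:123678886-123679082, minus strand: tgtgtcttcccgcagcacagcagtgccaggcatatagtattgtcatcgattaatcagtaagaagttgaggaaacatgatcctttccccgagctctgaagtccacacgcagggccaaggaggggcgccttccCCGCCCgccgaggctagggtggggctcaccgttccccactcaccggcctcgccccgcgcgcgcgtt
The 250 bases before each RefSeq start, of which the part that lies before the GENCODE gene is printed, were searched on both strands for 5 motifs, none of which contains another: the GC box, the E-box CACGTG, the OTX motif TAATCC, the CCAAT box and the TATA box TATAAA. Slc6a20a had 1 GC box, and Slc16a8 and Slc2a12 had none of the 5 in these windows. Promoter entries existed for 171 of the solute carriers, 227 entries in all, and 62.1% of them held a GC box, against 32.7% of 32851 mouse promoters. The E-box stood in 12.3% of the solute carrier entries, against 6.02% of all promoters, and the TATA box in 6.17%, against 12.4%. None of the 23 entries of carriers held by the choroid plexus held the OTX motif, beside 4.4% of the solute carrier entries and 6.25% of all promoters. At such shares few matches are expected among 23 entries, so their absence is not read as a result. The CCAAT box stood in 31.7% of the solute carrier entries, against 33.9% of all promoters. The mouse promoters were not limited to genes listed for both libraries, as the solute carriers were, so the shares compare unlike sets. These are matches of letters only.

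All 4 genes were lower in each cluster of the epithelium. The class was made of clusters 3, 4, 7 and 8, which held 40.7%, 15.4%, 23.5% and 20.5% of its GlaKO cells and 27.6%, 19.1%, 31.7% and 21.6% of its wt cells. Slc16a8 was lowest in cluster 4, at 17.9 CPM in GlaKO and 32.6 CPM in wt, and highest in cluster 8, at 226 CPM in GlaKO and 432 CPM in wt. Its ratio ran from -1.10 to -0.87 over the 4 clusters. Cluster 4 had no choroid plexus marker among its 10 leading genes and the lowest level of each of these carriers. Slc2a12 was at -0.14 in that cluster and between -0.55 and -0.47 in the others, and with equal weight for each cluster it came to -0.48, under 1.5-fold.

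**Figure D3:**
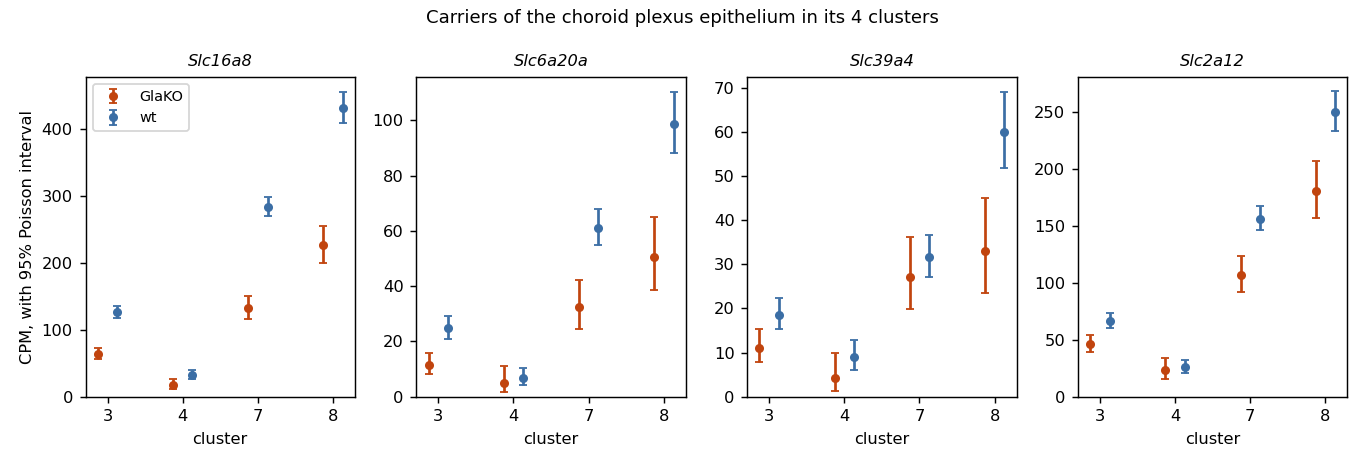
CPM of Slc16a8, Slc6a20a, Slc39a4 and Slc2a12 in the 4 clusters of choroid plexus epithelium, GlaKO left and wt right in each cluster, with 95% Poisson intervals. The GlaKO point lies below the wt point for each gene in each cluster, with overlapping intervals for all 4 genes in cluster 4 and for Slc39a4 in cluster 7 as well.

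Depth of the cells moved with these ratios. When cells were split into 5 parts by their UMI count and the parts weighted equally, Slc16a8 came to -0.75 and Slc6a20a to -0.67, both still past 1.5-fold. Slc39a4 came to -0.23 and Slc2a12 to -0.12, and 17 of the 22 carriers remained below 0, with a median of -0.12. The count over all genes is not given for this weighting. Pericytes had a higher level of Slc6a20a than choroid plexus epithelium, which had 21.6 CPM in GlaKO and 45.8 CPM in wt. Their level was 809 CPM in the 14 GlaKO cells and 770 CPM in the 33 wt cells. With so few cells they were a class too small to hold a gene here. The 5 pericyte markers measured summed to 23.5 CPM in GlaKO and 60.9 CPM in wt within choroid plexus epithelium, with 1 marker at 0 in GlaKO and none higher in GlaKO. Their part in the Slc6a20a ratio was not tested.

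The carriers of the plexus named next are among those left after the genes past 1.5-fold were set apart. Their smaller differences follow from that choice. The chloride-bicarbonate exchanger gene Slc4a2 had 147 CPM in GlaKO and 199 CPM in wt, a ratio of -0.43 (-0.53 to -0.33). The polyspecific monoamine transporter gene Slc29a4 stood at -0.40, the folate carrier gene Slc19a1 at -0.41, the iodide transporter gene Slc5a5 at -0.43 and the sulfate transporter gene Slc13a4 at -0.30. These 5 were all below wt by less than 1.5-fold, and with the depth parts weighted equally Slc19a1 came to 0.08. The sodium-bicarbonate cotransporter gene Slc4a5, the most confined to the class at 6.91 times the next, had 90.2 CPM in GlaKO and 101 CPM in wt, a ratio of -0.16 (-0.29 to -0.03). Its direction differed by cluster, at -0.19 in cluster 7 and -0.14 in cluster 8 but 0.07 in cluster 3 and 0.45 in cluster 4, each with an interval that includes 0. Slc13a4 likewise came to 0.34 (-0.34 to 1.00) in cluster 4, and lay below 0 in the other clusters.

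Mitochondrial carriers, which made up 8 of the 22, lay close to 0. The phosphate carrier gene Slc25a3 had 1872 CPM in GlaKO and 1897 CPM in wt, a ratio of -0.02 (-0.05 to 0.01). The ADP/ATP exchangers Slc25a4 and Slc25a5 were at -0.06 and -0.12, the oxoglutarate carrier Slc25a11 at -0.01 and the glutathione carrier Slc25a39 at -0.08. The carriers on the high side were the copper importer Slc31a1, at 278 CPM in GlaKO and 250 CPM in wt (0.15, 0.08 to 0.23), and the pyrimidine nucleotide carrier Slc25a33 at 0.13. With each cell thinned to 1000 UMIs Slc31a1 came to -0.01. Scaling by TMM shifted every ratio in this class downwards by the same amount and left 20 of 22 below 0, with a median of -0.26.

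**Figure D4:**
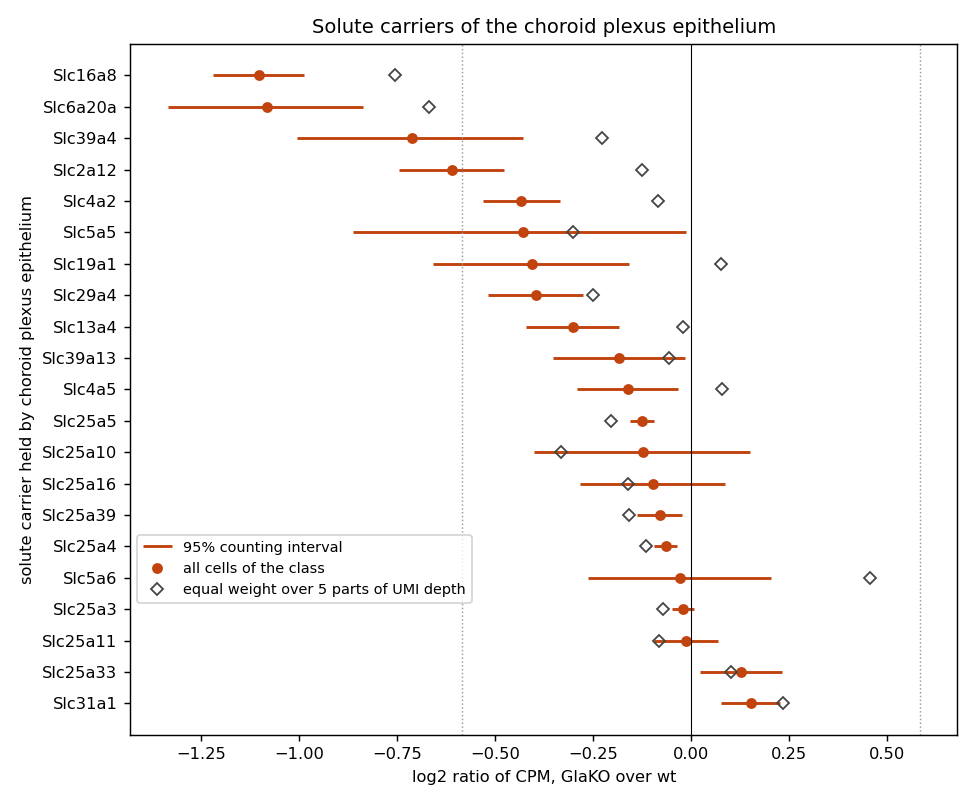
Log2 ratio of CPM, GlaKO over wt, for 21 of the 22 solute carriers held by choroid plexus epithelium; filled points use all cells with their 95% counting interval, and open diamonds give equal weight to 5 parts of UMI depth. Slc16a8 and Slc6a20a stay past the dotted 1.5-fold line in both, while Slc39a4 and Slc2a12 do not, and the mitochondrial carriers lie near 0.

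Astrocytes held the most solute carriers and showed none past 1.5-fold among the 39 compared, beside 1.03% higher and 0.688% lower of all genes held by the class. The median ratio was -0.03, the same as over all genes held by astrocytes, with 13 genes higher and 26 lower in GlaKO. The sodium-bicarbonate cotransporter gene Slc4a4 had 3308 UMIs (1982 CPM) in GlaKO and 2577 UMIs (1951 CPM) in wt, a ratio of 0.02 (-0.05 to 0.10). The interval reaches no further than 0.10 from 0, but it covers counting error only, and a change between the genotypes was not tested.

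Amino acid and lipid carriers of astrocytes were as close. The small neutral amino acid exchanger gene Slc7a10 had 811 CPM in GlaKO and 828 CPM in wt, a ratio of -0.03. The cystine-glutamate exchanger Slc7a11 was at -0.01, and Slc3a2, the heavy chain with which both exchangers form their complexes, was at -0.06. The fatty acid transporter Slc27a1 was at -0.02, with 703 CPM in GlaKO and 713 CPM in wt. The extremes were the magnesium transporter Slc41a1, at 212 CPM in GlaKO and 171 CPM in wt (0.31, 0.06 to 0.56), and the urea transporter Slc14a1, at 82.1 CPM in GlaKO and 113 CPM in wt (-0.46, -0.80 to -0.11). Slc14a1 changed side when cells were thinned to 1000 UMIs, to 0.20.

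Neurons held the carriers of synaptic vesicles and of chloride balance, and all but 1 of the 41 compared lay within 1.5-fold. Their median ratio was -0.01, beside 0.02 over all genes held by neurons, with 19 higher and 22 lower. The vesicular glutamate transporter gene Slc17a7 had 1951 UMIs (706 CPM) in GlaKO and 1408 UMIs (721 CPM) in wt, a ratio of -0.03 (-0.13 to 0.07). The potassium-chloride cotransporter gene Slc12a5 was at 0.06 (-0.07 to 0.19), the vesicular zinc transporter Slc30a3 at -0.12 (-0.29 to 0.06) and the bicarbonate transporter Slc4a10 at 0.05 (-0.11 to 0.21). The lysosomal protein gene Slc7a14 was at 0.10 and the sodium-calcium exchanger Slc8a2 at -0.21 (-0.37 to -0.06). The lowest was the zinc transporter Slc39a6, at -0.26 (-0.53 to 0.01). With equal weight for each cluster of neurons, Slc8a2 came to 0.01, Slc39a6 to -0.02, Slc30a3 to 0.02 and Slc12a5 to -0.01. The direction of Slc7a14 differed by cluster, at -0.90 (-1.55 to -0.25) in cluster 13 and 0.28 (0.12 to 0.45) in cluster 15.

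The exception was Slc17a6, the second vesicular glutamate transporter gene, with 309 UMIs (112 CPM) in GlaKO and 127 UMIs (65.0 CPM) in wt. Its ratio was 0.78 (0.48 to 1.09), and 1 of 41 compares with 1.77% of all genes held by neurons that were at least 1.5-fold higher and 1.11% that were at least 1.5-fold lower. Its transcripts sat in clusters 2 and 13. Cluster 15, which held 64.2% of the GlaKO neurons and 72.0% of the wt neurons, had 1 UMI of Slc17a6 in GlaKO and 0 in wt. In cluster 13 the gene had 315 CPM in GlaKO and 189 CPM in wt, a ratio of 0.74 (0.29 to 1.21), and in cluster 2 it had 323 CPM in GlaKO and 296 CPM in wt, a ratio of 0.13 (-0.32 to 0.58). Cluster 13 made up 21.7% of the GlaKO neurons and 11.2% of the wt neurons, and with equal weight for each cluster the ratio of the class came to 0.40. Slc17a7 sat in clusters 13 and 15, at 747 CPM in GlaKO and 859 CPM in wt in cluster 13 (-0.20, -0.43 to 0.03) and 808 CPM in GlaKO and 824 CPM in wt in cluster 15, with 1 UMI in GlaKO and 0 in wt in cluster 2. Cluster 13 thus held transcripts of both genes.

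**Figure D5:**
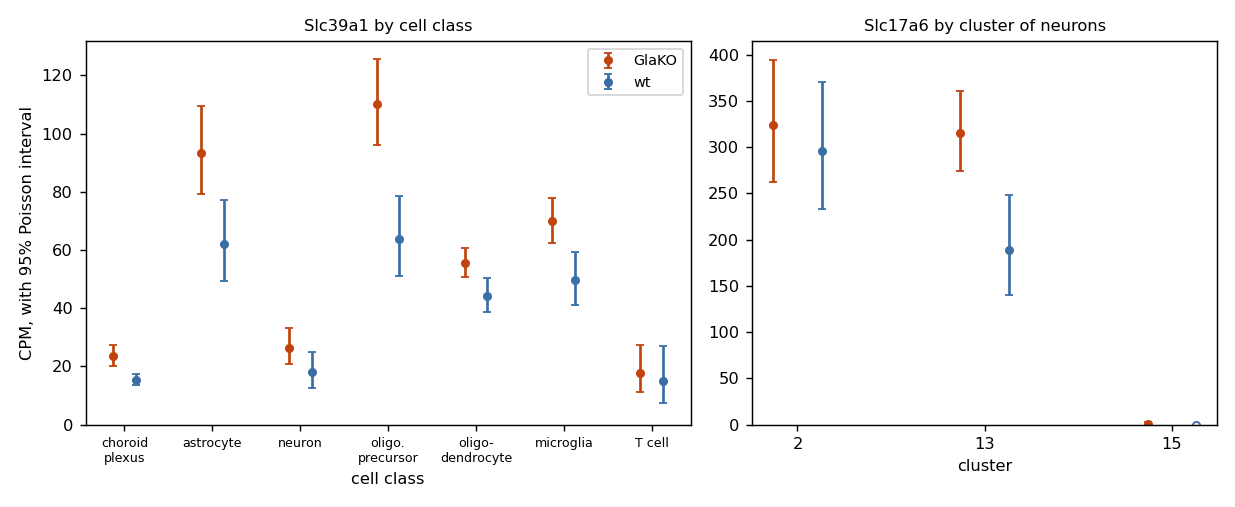
CPM with 95% Poisson intervals, GlaKO left of wt, for Slc39a1 in the 7 compared classes (left panel) and for Slc17a6 in the 3 clusters of neurons (right panel; the open point is 0 UMIs). Slc39a1 is above wt in each class, although the T cell values rest on 21 and 11 UMIs, and Slc17a6 stands apart from wt in cluster 13 alone.

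Oligodendrocyte precursors held 33 solute carriers, of which 24 were compared, with a median ratio of 0.06 and 16 higher, beside 0.00 over all genes held by the class. The zinc importer gene Slc39a1, which encodes ZIP1, had 220 UMIs (110 CPM) in GlaKO and 88 UMIs (63.7 CPM) in wt. Its ratio of 0.79 (0.43 to 1.16) was the highest of all 163 genes, and 1 of 24 compares with 2.07% of the genes held by the class that were at least 1.5-fold higher. Both clusters of the class were higher in GlaKO, at 0.96 and 0.80. None of the 24 was at least 1.5-fold lower, beside 0.943% of the genes held by the class.

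Slc39a1 was also higher in GlaKO outside the precursors. It was higher in 6 of the 6 classes that gave 100 UMIs, at 93.5 CPM in GlaKO and 62.1 CPM in wt astrocytes (0.59), 69.9 and 49.6 CPM in GlaKO and wt microglia (0.50), 55.5 and 44.2 CPM in GlaKO and wt oligodendrocytes (0.33), 26.4 and 17.9 CPM in GlaKO and wt neurons (0.56) and 23.5 and 15.4 CPM in GlaKO and wt choroid plexus epithelium (0.61). The interval included 0 in neurons alone. Precursors were only 1.15 times above astrocytes, so the gene has no sharp home. It lies on chromosome 3 (90248172 to 90253612, plus strand, GRCm38) and overlaps no other annotated gene.

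The other named carriers of precursors were close between libraries. Slc22a17, which encodes a receptor for the iron-binding protein lipocalin-2, had 1021 CPM in GlaKO and 1019 CPM in wt, a ratio of 0.00 (-0.10 to 0.10). For Slc22a17 precursors were only 1.05 times above choroid plexus epithelium, which had the highest level when wt was taken alone. The glutamate transporter Slc1a1 was at 0.27 (0.08 to 0.47), and Slc22a23 and Slc35f1, whose cargo is unknown or uncertain, were at 0.34 and 0.23. The sugar transporter Slc50a1 was at -0.05, the mitochondrial pyrimidine nucleotide carrier Slc25a36 at 0.08 and the zinc transporter Slc30a5, the lowest, at -0.21.

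Oligodendrocytes held 12 carriers, none past 1.5-fold, beside 0.613% higher and 0.964% lower of all genes held by the class. The median was 0.04 and 8 were higher, beside 0.05 over all their genes. The heme transporter gene Slc48a1 had 785 CPM in GlaKO and 753 CPM in wt, a ratio of 0.06 (0.00 to 0.12). The sodium-potassium-chloride cotransporter gene Slc12a2 had 743 CPM in GlaKO and 670 CPM in wt, a ratio of 0.15 (0.09 to 0.21). The choline transporter Slc44a1 was at 0.05, the potassium-dependent sodium-calcium exchanger Slc24a2 at 0.16, the glycine transporter Slc6a9 at 0.15 and the amino acid transporter Slc43a2 at -0.12. The lowest was the mitochondrial aspartate-glutamate carrier Slc25a13, at -0.27 (-0.50 to -0.04).

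Microglia held 23 carriers, with a median of 0.07 and 13 higher, beside 0.00 over all genes held by the class. Slc15a3, which encodes a lysosomal transporter of histidine and peptides, had 1270 UMIs (269 CPM) in GlaKO and 430 UMIs (176 CPM) in wt. Its ratio was 0.61 (0.45 to 0.77), and 1 of 23 compares with 1.61% of the genes held by microglia that were at least 1.5-fold higher. Both clusters of microglia were higher in GlaKO, cluster 5 at 0.49 (0.31 to 0.68) and cluster 12 at 0.97 (0.63 to 1.32), and thinning to 1000 UMIs gave 0.85. The call is narrow on the other side, since it came to 0.56 when the 4% of barcodes with the highest doublet scores were removed and to 0.58 when no doublets were removed, both just under 1.5-fold. Slc15a3 overlaps Tmem132a and AC132402.1 on the other strand of chromosome 19.

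Slc8a1, the sodium-calcium exchanger NCX1, was the only carrier of microglia at least 1.5-fold lower, beside 0.944% of the genes held by the class. It had 113 UMIs (23.9 CPM) in GlaKO and 97 UMIs (39.7 CPM) in wt, a ratio of -0.73 (-1.14 to -0.32). Microglia were only 1.06 times above oligodendrocytes for this gene. Its highest class was microglia in wt alone and neurons in GlaKO alone. Its place among the carriers of microglia thus rests on wt, the library with the higher level, so a lower GlaKO ratio is partly built in. The fructose transporter Slc2a5, the carrier most confined to microglia, had 266 CPM in GlaKO and 244 CPM in wt, a ratio of 0.12 (-0.02 to 0.26). The monocarboxylate family member Slc16a6 was at 0.14, the amino acid transporter Slc7a8 at -0.05, the lysosomal nucleoside transporter Slc29a3 at -0.14 and the phagosomal metal transporter Slc11a1 at -0.11.

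Endothelial cells held the carriers of the blood-brain barrier but were too few to compare, with 33 cells in GlaKO and 99 in wt. The glucose transporter gene Slc2a1 had 43 UMIs (311 CPM) in GlaKO and 544 UMIs (1527 CPM) in wt. The taurine transporter Slc6a6 had 47 and 304 UMIs in GlaKO and wt, the adaptor Slc9a3r2 had 26 and 249, the zinc transporter Slc39a10 had 13 and 208, the large neutral amino acid transporter Slc7a5 had 10 and 148, and the lactate transporter Slc16a1 had 14 and 104. At a finer clustering, in which some cells of other classes joined them, 2 clusters took the endothelial name. One had 5 GlaKO and 77 wt cells and endothelial leading genes, and the other had 32 GlaKO and 29 wt cells and leading genes of other classes as well, so the low GlaKO levels cannot be told apart from the makeup of the GlaKO cells. Border macrophages, with 46 GlaKO and 34 wt cells named from 3 detected markers, held Slc16a3, Slc9a9, Slc25a28 and Slc46a3, which had 26, 19, 18 and 13 UMIs in GlaKO and 5, 16, 5 and 7 UMIs in wt. T cells held 8 genes and gave 2 for comparison, the glutamine transporter Slc1a5 at -0.35 (-0.89 to 0.20) and the mitochondrial carrier Slc25a40 at 0.22 (-0.34 to 0.81), both with intervals that include 0.

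Few carriers stood on the same side of wt in every class. Of the 83 measured in at least 4 classes, 7 (8.43%) were higher in GlaKO in all of them and 4 (4.82%) were lower in all, close to the 9.65% and 4.77% of all 6625 genes measured in at least 4 classes. The higher ones besides Slc39a1 were Slc15a4, Slc25a23, Slc35a4, Slc35b2, Slc39a9 and Slc4a4, and the lower ones were Slc23a2, Slc25a5, Slc27a1 and Slc35b1. The ADP/ATP exchanger gene Slc25a5 was lower in all 7 classes by a small margin, from -0.25 in oligodendrocytes to -0.12 in choroid plexus epithelium.

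Away from the class that holds them, solute carriers gave 494 pairs of gene and class with 100 UMIs. Of these 20 were at least 1.5-fold higher, beside 3.26% of all such pairs, and 16 at least 1.5-fold lower, beside 1.63%. At least 1.5-fold higher in one class and at least 1.5-fold lower in another were 2 of the 156 carriers measured in at least 2 classes, Slc8a1 and Slc39a3, which is 1.28% beside 0.478% of all genes. Choroid plexus epithelium gave 11 of the 16 lower pairs, in 114 pairs, beside 2.61% of all genes measured in this class that were 1.5-fold lower. Slc7a10 had 504 UMIs (68.1 CPM) in GlaKO and 2266 UMIs (125 CPM) in wt in this epithelium, a ratio of -0.87 (-1.01 to -0.73). Slc3a2 was lower there by a similar step, at 62.3 CPM in GlaKO and 96.2 CPM in wt (-0.63, -0.78 to -0.48). In astrocytes, which hold both genes, their ratios were -0.03 and -0.06. The ascorbate transporter gene Slc23a2 had 44.7 CPM in GlaKO and 68.9 CPM in wt choroid plexus epithelium (-0.62, -0.80 to -0.45).

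By kind of cargo, the larger families of the 163 compared genes had medians near 0 in their holding classes. Mitochondrial carriers had a median of -0.01 over 29 genes, amino acid carriers -0.05 over 21, metal carriers -0.05 over 21, carriers of nucleotide sugars and acetyl-CoA -0.01 over 19, and bicarbonate and chloride carriers 0.05 over 13. The 5 compared genes of the Slc13 and Slc20 families, which carry phosphate, sulfate or dicarboxylates, were all lower, from -0.30 to -0.08, with a median of -0.16. The Slc17 family of vesicular and lysosomal transporters gave 3 compared genes, all held by neurons, with the highest family median, 0.49. They were Slc17a6, Slc17a7 and Slc17a5, which encodes the lysosomal sialic acid exporter sialin and had 117 UMIs (42.3 CPM) in GlaKO and 59 UMIs (30.2 CPM) in wt, a ratio of 0.49 (0.02 to 0.96). The family median is thus the value of Slc17a5 in neurons. Over the 5 classes where Slc17a5 was measured it was higher in 1 and lower in 4, with a median of -0.36. The 8 genes past 1.5-fold fell in 7 families, of which metals alone gave 2, Slc39a1 higher and Slc39a4 lower.

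Carriers with other symbols and the partner proteins that bring carriers to the membrane were looked at in the same way. Of 27 listed genes 25 were listed for both libraries and 19 compared, 11 higher and 8 lower, with a median of 0.02. The synaptic vesicle protein gene Sv2b alone was at least 1.5-fold higher, with 168 UMIs in GlaKO and 55 UMIs in wt neurons (1.11, 0.66 to 1.58), and none was 1.5-fold lower. Of all 9949 genes compared in their holding class, 5248 were higher and 4701 lower. At least 1.5-fold higher were 1.82% of them, and at least 1.5-fold lower 1.35%. Sv2b is not given by cluster, and cluster 13 made up 21.7% of the GlaKO neurons and 11.2% of the wt neurons. Mpc1, which encodes a subunit of the mitochondrial pyruvate carrier, was at -0.22 (-0.26 to -0.18) in choroid plexus epithelium, with 982 CPM in GlaKO and 1144 CPM in wt, and its partner Mpc2 at -0.04.

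All 216 genes were found in the GENCODE annotation of GRCm38, and 104 of them overlap another annotated gene. Among the genes past 1.5-fold, Slc16a8 lies on chromosome 15 at 79251014 to 79254761 on the minus strand and overlaps Gm49486 on the other strand. Slc17a6 lies on chromosome 7 at 51622006 to 51671119 on the plus strand and overlaps Gm45072 on the same strand, and Slc2a12 lies on chromosome 10 at 22645011 to 22704285 on the plus strand and overlaps Tbpl1 on the other strand. Slc6a20a lies on chromosome 9 at 123634770 to 123678885 on the minus strand and overlaps Gm47171 on the same strand and Gm17120, Gm17200, Gm47173 and Ccr9 on the other. Slc8a1 overlaps AC122399.1 and Gm11096 on the other strand of chromosome 17, and Slc39a4 overlaps no annotated gene. Reads from a shared stretch cannot be told apart where genes lie on the same strand.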

How the data were processed

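The files deposited by the authors hold raw counts, 1 whole number of UMIs per gene and cell barcode, with gene and barcode lists (unit other) beside them. Per the labels' protocols, 3′ libraries were made with 10x Genomics chemistry. The submitters' processing notes list the build mm10 and the tools Seurat 4, Cell Ranger 6.0.1 and R 4.1.3, without the cell and gene filters applied. The GlaKO library had a median of 6101 UMIs per barcode, the wt library 5054.

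Scrublet in scanpy 1.11.5 marked 70 GlaKO (1.53%) and 25 wt barcodes (0.459%) as doublets, which were removed. A share under 0.5% is too low to trust the caller in wt, so an alternative removed the top 4% of scores. That left 4502 GlaKO and 5418 wt cells, of which 0 GlaKO and 17 wt cells stayed in an unnamed cluster. Both libraries were clustered together (2000 variable genes without solute carriers, 30 components, 15 neighbours, Leiden 1.0). A cell type was a candidate for a cluster, with "-like" understood, where at least 3 of its markers were seen in 10% of the cells with a mean log2 fold of at least 1.0. The candidate with the most markers among the 10 leading genes gave the name, or with equal numbers the one with the higher fold. A cluster stayed unnamed where another type had as many leading markers, or where its best candidate had under 2 and another a higher fold. Clusters 4 (choroid plexus) and 16 (border macrophage) had 0 own markers among the leading genes. These limits were chosen with the clusters in view.

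UMIs were summed per class and library and divided by the class total. Classes of at least 50 cells could hold a gene, and classes with 100 cells per library were compared. Ratios have exact conditional 95% intervals and sums exact Poisson intervals; UMIs are taken as independent, so a gene read from few cells has a wider true error. The ratio code was tested on simulated data. Named genes were the 6 with the most UMIs in each class, every gene at least 1.5-fold apart and the extremes; other genes in the text were chosen after their values were seen, and 2 genes are not reported here. The genes, lists and rules were chosen with earlier results of these data known. Solute carriers listed for 1 library only, 3 in GlaKO and 6 in wt, were left out. Alternatives were TMM scaling (edgeR 4.0.16), other minimum counts, thinning, other clusterings and doublet removals, dropping the top cell, and equal weight for depth parts or clusters.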

Additional observations from a re-analysis of the deposited data

Results flagged for a closer look

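A pair of solute carriers stood at least 1.5-fold higher in GlaKO in one class and at least 1.5-fold lower in another. They were 2 of the 156 measured in at least 2 classes (1.28%), beside 0.478% of all genes. With 1 library per genotype the difference between the classes was not tested. Slc8a1, the sodium-calcium exchanger gene, was at -0.73 in microglia, with 113 UMIs in GlaKO and 97 in wt, and at 1.00 in neurons, with 82 UMIs in GlaKO and 29 in wt (0.37 to 1.66). Its highest class was microglia in wt alone and neurons in GlaKO alone. In neurons its UMIs sat mostly in cluster 13, with 73 UMIs in GlaKO and 26 in wt, where the ratio was 0.18 (-0.48 to 0.89), and this cluster held 21.7% of the GlaKO and 11.2% of the wt neurons. Slc39a3, a zinc importer gene held by oligodendrocyte precursors, was at -0.67 in choroid plexus epithelium (-1.39 to -0.01), with 24 UMIs in GlaKO and 94 in wt, and at 0.79 in microglia (0.11 to 1.51), with 80 UMIs in GlaKO and 24 in wt. In choroid plexus epithelium its level was 11.1% of that in precursors, and in microglia 34.8%.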

How the results depend on the processing

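No value of a gene named for its size changed sign past 1.5-fold: of 550 values of 50 compared named genes under the alternatives, 514 moved by less than their counting interval and 36 by more. The count at least 1.5-fold higher, 3, came to 5 with a minimum of 20 UMIs and with equal weight over depth parts, and to 1 with a minimum of 500 and with thinning to 1000 UMIs. The count at least 1.5-fold lower, 5, came to 3 with depth parts weighted equally. The number compared, 163, came to 75 with a minimum of 500 and to 73 with thinning. Thinning also left 3 genes held by T cells and 0 by border macrophages, and put the median of neurons at 0.15 and of oligodendrocyte precursors at 0.20, over 8 genes each; equal weight over depth parts put precursors at 0.19. Border macrophages held 1 gene with the top 4% of doublet scores removed and 2 from wt alone, and endothelial cells held 27 from GlaKO alone. The T cell median, over 2 genes, came to 0.16 with a minimum of 20, -0.17 with no doublets removed, 0.088 with depth parts and 0.22 where classes of 20 cells could hold a gene, an alternative added after the data were seen, as was equal weight per cluster. Where classes of 20 cells could hold a gene, 4 genes were 1.5-fold lower. No paired analysis was possible because each genotype had 1 library. Genes under 100 UMIs in their class gave no ratio, and a missing difference there may be a limit of depth.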
